A study of Mus musculus with 24 samples.

Results

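Inhaled benzene was compared with filtered air in hearts without pressure overload. The comparison holds the 6 libraries of the group named Sham/Benzene and the 6 of the group named Sham/Air, which are 12 of the 24 libraries of the series. Members were taken from the sample titles. The tissue was left ventricle with septum. All 12 libraries came from C57BL/6 male mice that had sham surgery, the control operation for transverse aortic constriction (TAC), and recovered for 1 week. Over the next 6 weeks Sham/Benzene mice breathed benzene at 50 ppm on 5 days of each week, 6 hours daily, and Sham/Air mice breathed HEPA-filtered air on the same schedule. The other 12 libraries are TAC/Benzene and TAC/Air hearts, 6 each, from mice of the same strain and sex. The sources used here give no age. The labels do not say which mouse each library came from, so p-values measure the spread between these libraries.

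Benzene is a solvent and a component of tobacco smoke and vehicle exhaust. It is oxidized mainly by the cytochrome P450 CYP2E1 in liver and lung to an epoxide, phenol, hydroquinone and reactive quinones, which are detoxified by epoxide hydrolase, quinone reductase, glutathione transferases and sulfotransferases. Its known toxicity falls on bone marrow and blood cells, and its metabolites can engage antioxidant, DNA-damage and protein-damage responses in other tissues.

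Poly-A RNA was sequenced, and the deposited values are read counts per gene symbol. Total counts ran from 9396445 to 14632231 in Sham/Benzene and from 4170660 to 12718494 in Sham/Air. Cardiomyocyte markers were abundant in every library. Myh6, the adult alpha myosin heavy chain, ranged from 20259 to 28391 CPM (counts per unit of TMM-scaled library size) in Sham/Benzene and from 23945 to 42092 CPM in Sham/Air. Sham/Air replicate 1 was the shallowest of the 12. Its Spearman correlation with the rest of its group was 0.862 to 0.905, and it was the far highest library of its group in 16.5% of tested genes and the far lowest in 27% of them. The median SD of log2 CPM was 0.23 in Sham/Benzene and 0.42 in Sham/Air. Without Sham/Air replicate 1 the Sham/Air value was 0.18, and without Sham/Benzene replicate 4 the Sham/Benzene value was 0.22. In both groups replicates 1 to 3 had a negative trend with the GC content of genes and replicates 4 to 6 a positive one, a split that no label names as a batch. Sham/Benzene replicate 4 held the highest levels of the heat shock genes Hspa1a, Hspa1b and Dnajb1 and of the atrial genes Sln and Myl7 among the 12. Results are therefore also given without Sham/Air replicate 1 and Sham/Benzene replicate 4, called the doubted pair. Over all tested genes, Sham/Benzene replicate 4 was the far highest of its group in 0.302% and the far lowest in 0.265%. Sham/Benzene replicate 3 was so in 0.641% and 1.12%, in that order.

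**Figure D1:**
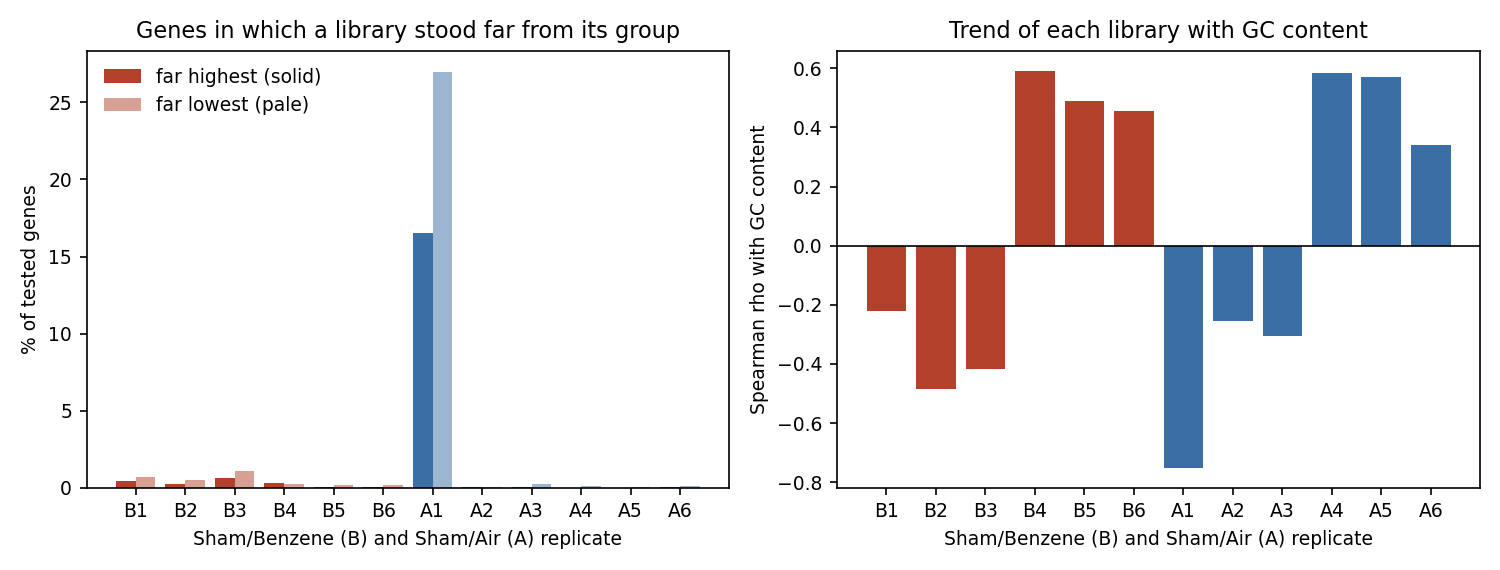
Left, for each Sham/Benzene (B) and Sham/Air (A) library, the percentage of the 13571 tested genes in which it lay far above (solid) or far below (pale) the rest of its group by Dixon's criterion. Right, Spearman correlation of each library's deviation with gene GC content. Sham/Air replicate 1 is far lowest in 27% of genes, and replicates 1 to 3 have negative and replicates 4 to 6 positive GC trends in both groups.

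Of 13571 genes tested, 3 passed an adjusted p under 0.05, which is 0.0221% of them. Hspa1b, an inducible Hsp70 chaperone, rose in Sham/Benzene and was the single gene called higher (0.00737%). Scgb1a1, the secretory protein of airway club cells, and Sftpc, a surfactant protein of alveolar type II cells, fell and were the 2 called lower (0.0147%). At an unadjusted p under 0.05 there were 777 genes, or 5.73%, of which 419 were higher (3.09%) and 358 lower (2.64%) in Sham/Benzene. Counts of list members at this threshold, given below, stand against these shares. DESeq2, run as an alternative, called 28 genes, which included the 3. Without Sham/Air replicate 1 and Sham/Benzene replicate 4 there were 7 calls, of which 2 were among the 3. The median log2 fold change over all tested genes was 0.00. The 95% interval of the fold change lay inside 2-fold in either direction for 92.2% of tested genes, and for 99.1% of those with a mean of at least 10 CPM. All 6 Sham/Benzene libraries lay above all 6 Sham/Air libraries in 22 genes (0.162%), and below them in 16 genes (0.118%).

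Hspa1b and its neighbour Hspa1a are shown with their promoters, because they encode nearly the same protein and share nearly the same regulatory sequence. Heat shock factor binds inverted repeats of the motif GAA. Below are the 250 bases before the annotated start of each gene (RefSeq, GRCm38.p6, minus strand, read 5′ to 3′), at chr17:34959239-34959488 for Hspa1b and chr17:34972157-34972406 for Hspa1a. Capitals mark GAANNTTC, in which N is any base.
Hspa1b: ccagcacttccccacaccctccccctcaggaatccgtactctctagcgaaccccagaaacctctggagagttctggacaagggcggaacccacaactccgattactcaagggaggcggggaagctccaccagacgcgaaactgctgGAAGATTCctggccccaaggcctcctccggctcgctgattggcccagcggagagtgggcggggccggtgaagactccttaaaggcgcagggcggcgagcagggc
Hspa1a: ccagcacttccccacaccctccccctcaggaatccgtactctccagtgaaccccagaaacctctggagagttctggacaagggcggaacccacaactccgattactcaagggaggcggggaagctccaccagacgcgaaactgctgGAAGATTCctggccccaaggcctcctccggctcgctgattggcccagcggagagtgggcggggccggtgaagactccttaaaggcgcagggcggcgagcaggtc
The 2 windows were identical at 247 of 250 bases (98.8%), and each held GAANNTTC once and TTCNNGAA not at all. Both motifs read the same on either strand. Of 32851 promoter windows of this length, 6.69% held GAANNTTC and 7.17% held TTCNNGAA. A match alone therefore does not show binding, which was not tested. The 2 windows of Dnajb1 held neither motif, which does not show that heat shock factor has no site there. Of the other chaperone genes searched, a window of Dnaja1 held GAANNTTC and its other windows held neither motif. Both windows of Hsph1, which overlap, held TTCNNGAA at the same site. How reads of near-identical genes were counted is not stated in the sources used here, so the division of reads between Hspa1a and Hspa1b is uncertain.

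Hspa1b had a lowest, median and highest value of 2.00, 26.5 and 219 CPM in Sham/Benzene, against 3.90, 4.96 and 5.97 CPM in Sham/Air. Of the Sham/Benzene libraries, 5 lay above every Sham/Air library, replicate 4 far above the rest, while replicate 1 lay below every Sham/Air library. The log2 fold change was 3.45 ± 0.60 (SE), with an adjusted p of 0.037 by edgeR's quasi-likelihood test, and values after ± are SEs below unless an SD is named. Without Sham/Benzene replicate 4 it was 2.13, with an adjusted p of 0.013. The call was lost without any 1 Sham/Air library, with log2 fold changes from 3.40 to 3.52 and adjusted p-values from 0.085 to 0.14, and it also ended in the fit of the 12 sham libraries alone (adjusted p = 0.99). Over the replicates with a negative GC trend the log2 ratio of mean levels was 1.71, and over those with a positive trend it was 4.06.

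Hspa1a followed the same order, with a lowest, median and highest value of 2.32, 19.9 and 184 CPM in Sham/Benzene and of 3.61, 5.46 and 8.66 CPM in Sham/Air. Again replicate 4 was highest and replicate 1 lowest of the 12 libraries. The difference did not pass, at a log2 fold change of 2.98 ± 0.59 (adjusted p = 0.12). It passed without Sham/Benzene replicate 1, at 3.22 (adjusted p = 0.0042), and was 1.59 without replicate 4.

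Dnajb1, the Hsp40 co-chaperone that stimulates Hsp70, ranged from 22.4 to 98.1 CPM around a median of 35.5 in Sham/Benzene, and from 6.25 to 24.7 CPM around a median of 21.4 in Sham/Air. Only Sham/Benzene replicate 1 lay within the Sham/Air range. Its log2 fold change was 1.21 ± 0.26 (adjusted p = 0.15) with all libraries. Without Sham/Air replicate 1 and Sham/Benzene replicate 4 it was 0.67 and passed (adjusted p = 0.026). Among the 31 tested genes of the list of cytosolic heat shock and chaperone genes, 1 was called, and 5 had an unadjusted p under 0.05 and were higher, against the 3.09% over all genes. The other 2 of these were Dnaja1, another Hsp40, at 0.72 ± 0.22, and Hspb1, a small heat shock protein, at 0.51 ± 0.23. Without Sham/Air replicate 1 alone, 8 were higher and 1 lower. Hspa8, the constitutive Hsp70, had medians of 2005 CPM in Sham/Benzene and 1800 CPM in Sham/Air. Its means were 1994 ± 297 and 2034 ± 615 CPM in that order (SD, n = 6 each), and Sham/Air replicate 1 held its highest value, 3241 CPM. Bag3, an Hsp70 co-chaperone, had medians of 236 CPM in Sham/Benzene and 243 CPM in Sham/Air. Hsp90aa1, the inducible cytosolic Hsp90, had medians of 311 CPM in Sham/Benzene and 235 CPM in Sham/Air, and its highest value, 582 CPM, was in Sham/Air replicate 1. The list's median log2 fold change was 0.07, and 0.08 without the doubted pair.

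**Figure D2:**
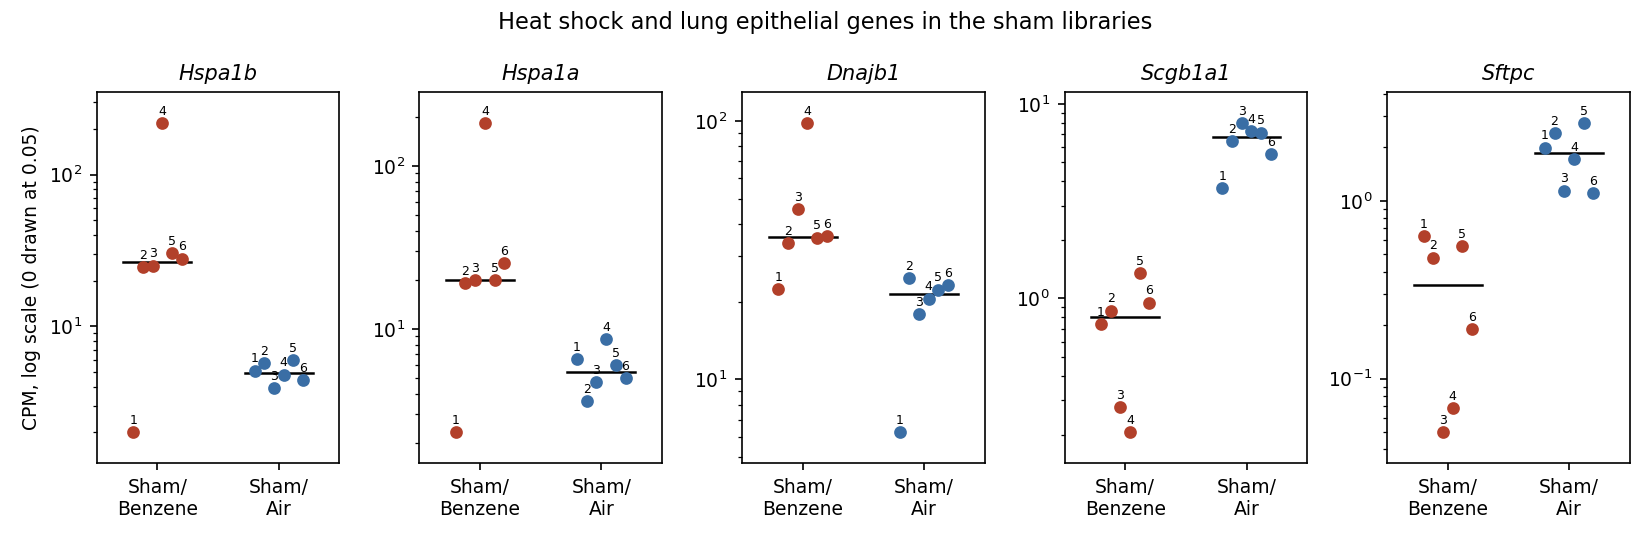
Level in CPM on a log scale of 3 heat shock genes and 2 lung epithelial genes in each Sham/Benzene library (left of each panel) and each Sham/Air library (right). Numbers are replicate numbers and lines are medians. Sham/Benzene replicate 4 is highest and replicate 1 lowest of its group for the heat shock genes, while the groups do not overlap for Scgb1a1 and Sftpc.

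Scgb1a1 and Sftpc were lower in Sham/Benzene and scarce in every heart. Of all 25 genes on the lung epithelial list, 8 had a higher mean in Sham/Benzene. Scgb1a1 had a lowest, median and highest value of 0.206, 0.801 and 1.35 CPM in Sham/Benzene, against 3.69, 6.76 and 7.97 CPM in Sham/Air. Its raw counts were 3 to 17 per library in Sham/Benzene and 13 to 88 in Sham/Air. The groups did not overlap, and the log2 fold change was -3.14 ± 0.33 (adjusted p = 1.53e-05, edgeR). It was -2.99 without Sham/Air replicate 1 and Sham/Benzene replicate 4. The log2 ratio of mean levels was -2.53 over replicates with a negative GC trend and -2.41 over those with a positive trend. In bulk tissue, fewer cells of a type and less RNA per cell cannot be told apart.

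Sftpc ranged from 0 to 0.633 CPM around a median of 0.335 in Sham/Benzene, and from 1.10 to 2.74 CPM around a median of 1.85 in Sham/Air. Again no library overlapped. The log2 fold change was -2.57 ± 0.47 (adjusted p = 0.049), and it lay close to the threshold. Leaving out any 1 library other than Sham/Benzene replicate 1 ended the call, with log2 fold changes from -2.84 to -2.32, and without the doubted pair it was -2.32 (adjusted p = 0.066). Of the 25 genes listed for lung epithelium, 6 passed the filter on low counts, and 2 of them were called. Of the 6, 3 had a higher sign in Sham/Benzene, and the median log2 fold change was 0.02, and -0.27 without the doubted pair. Krt18, an epithelial keratin, was 0.97 ± 0.40. Among the genes under the filter, Sftpa1, a surfactant protein, had 0 counts over the 6 Sham/Benzene libraries and 15 over the 6 Sham/Air libraries. Scgb3a2, another club cell protein, had 0 and 8 in the same order, Sftpd 0 and 5, Ager of alveolar type I cells 10 and 21, and Sftpb 6 and 12. The club cell gene Scgb3a1 had 23 counts in Sham/Benzene and 19 in Sham/Air, with mean levels of 0.327 and 0.398 CPM in that order, and Foxj1, of ciliated cells, had 9 and 1 counts. The list's summed level, which rests mainly on Hopx and Abca3, genes that heart also expresses, was 216 to 407 CPM in Sham/Benzene and 161 to 379 CPM in Sham/Air. Whether these transcripts came from heart or from adjoining tissue was not tested.

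Transcripts of liver-secreted proteins were higher in some of the Sham/Benzene libraries. Alb, serum albumin, had 706, 2, 223, 105, 0 and 0 counts in Sham/Benzene replicates 1 to 6, and 0, 0, 0, 1, 2 and 0 in Sham/Air. It did not pass the filter on low counts and was not tested. Apoa1, a high-density lipoprotein apolipoprotein, summed to 94 counts in Sham/Benzene and 1 in Sham/Air, and Apoc3, a regulator of triglyceride clearance, to 35 and 0. Replicate 1 gave most of the counts in each case, replicates 3 and 4 gave fewer, and the other 3 libraries had from 0 to 3 for each of the 3 genes. Ttr, the thyroid hormone carrier made in liver and choroid plexus, ranged from 0.239 to 11.1 CPM around a median of 0.939 in Sham/Benzene and from 0 to 0.488 CPM around a median of 0.0501 in Sham/Air. The log2 fold change was 4.20 ± 0.91 (adjusted p = 0.15), and 2.99 without Sham/Benzene replicate 1. Apoa2, another lipoprotein gene, had 17.6 CPM in that replicate, and its log2 fold change was 2.24 ± 0.60 with it and 1.22 without it. Of the 23 genes listed, 21 had a higher mean in Sham/Benzene. The summed level was 90.3 to 336 CPM in Sham/Benzene and 86.1 to 128 CPM in Sham/Air, with replicate 1 the highest.

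Enzymes that act on benzene are given beside these liver genes, since liver also makes several of them, and the part of liver RNA in their values was not tested. Cyp2e1 ranged from 2.85 to 5.38 CPM around a median of 3.90 in Sham/Benzene and from 1.65 to 2.90 CPM around a median of 2.34 in Sham/Air. A single Sham/Benzene library lay within the Sham/Air range. The log2 fold change was 0.81 ± 0.20 and did not pass (adjusted p = 0.21). It was 0.72 without replicate 1, the library with the most Alb. Replicate 2, with 2 Alb counts, had 5.18 CPM of Cyp2e1, and replicate 3, with 223 Alb counts, had 3.33 CPM. Ephx1, the microsomal epoxide hydrolase, had a log2 fold change of 0.31 ± 0.09, with medians of 78.5 CPM in Sham/Benzene and 64.3 CPM in Sham/Air (adjusted p = 0.44). Of 21 tested genes of benzene metabolism, 3 were higher and 2 lower at an unadjusted p under 0.05, with a median of -0.03. The third higher gene was Cyp4b1, a P450 of lung, at 0.29 ± 0.13, and 0.16 without Sham/Air replicate 1. The lower pair was Sult1a1, a phenol sulfotransferase, at -0.44 ± 0.16, and Aldh1a1, an aldehyde dehydrogenase, at -0.33 ± 0.14. Without Sham/Air replicate 1 and Sham/Benzene replicate 4 this pair was -0.20 and -0.11, and 3 genes of the list were higher and 0 lower.

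Cyp1a1, the P450 most strongly induced through the aryl hydrocarbon receptor, was 28.9 CPM in Sham/Benzene replicate 1. The other 5 Sham/Benzene libraries lay between 0.959 and 6.09 CPM, and Sham/Air libraries between 1.14 and 3.90 CPM. Its log2 fold change of 1.67 ± 0.55 (adjusted p = 0.62) was 0.59 without replicate 1. Cyp1b1, another target of the receptor, had the opposite sign at -0.58 ± 0.18, with medians of 9.95 CPM in Sham/Benzene and 15.2 CPM in Sham/Air (adjusted p = 0.59). Among 11 tested genes of this pathway 1 was higher and 2 lower at an unadjusted p under 0.05, and the other lower gene was Ahr, the receptor itself, at -0.29 ± 0.13.

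**Figure D3:**
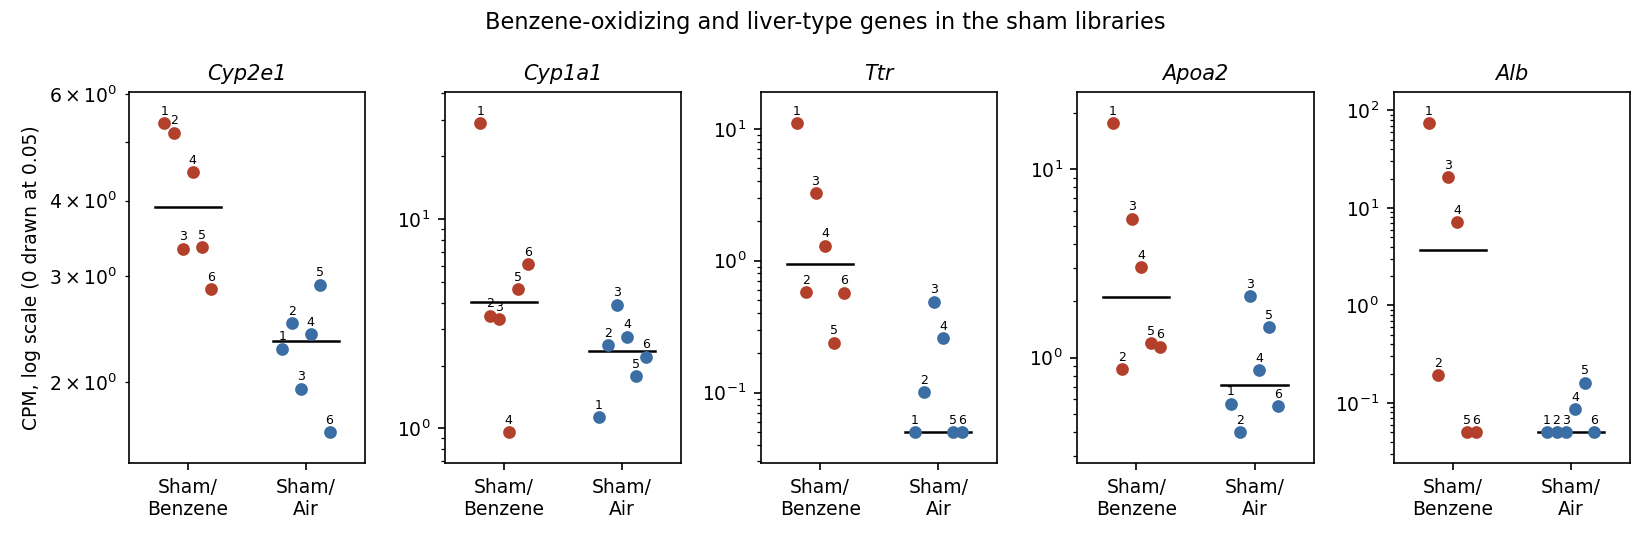
Level in CPM on a log scale of 2 benzene- or aryl-hydrocarbon-related P450 genes and 3 liver-type genes in each Sham/Benzene library (left) and each Sham/Air library (right), with replicate numbers and medians. Sham/Benzene replicate 1 is highest in all 5 panels, followed by replicates 3 and 4 for Ttr, Apoa2 and Alb, but by replicate 2 for Cyp2e1.

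Antioxidant genes under the transcription factor Nrf2 showed no member at an unadjusted p under 0.05 in either direction, of 25 tested, and their median was 0.05. Without the doubted pair 2 were higher and 0 lower, with a median of 0.02. Nqo1, the quinone reductase that detoxifies benzene quinones, had medians of 70.7 CPM in Sham/Benzene and 68.9 CPM in Sham/Air. Its log2 fold change was 0.03 ± 0.10 (adjusted p = 0.96), and -0.03 without Sham/Air replicate 1 and Sham/Benzene replicate 4. The metallothioneins, which bind metals and scavenge oxidants, were both higher at an unadjusted p under 0.05, with Mt1 at 0.34 ± 0.16 and Mt2 at 0.50 ± 0.21, and neither passed. They were 0.20 and 0.33 without Sham/Air replicate 1. Of 15 NADPH oxidase and oxidant enzyme genes, 2 were lower: Cybb, the catalytic subunit of the phagocyte oxidase, at -0.34 ± 0.16, and Cat, catalase, at -0.26 ± 0.11. Sham/Air replicate 1 was the far highest Sham/Air library for both, and without it and Sham/Benzene replicate 4 they were -0.11 and -0.06.

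DNA-damage genes under p53 had 5 higher and 2 lower of 25 tested at an unadjusted p under 0.05, with a median of 0.01. Without Sham/Air replicate 1 these were 2 and 1, and without Sham/Benzene replicate 4, or without both, 2 and 0. Tnfrsf10b, a death receptor, had a log2 fold change of 0.67 ± 0.22, and Eda2r, another receptor under p53, of 0.48 ± 0.17. Cdkn1a, the cell cycle inhibitor p21, averaged 22.6 ± 4.48 CPM in Sham/Benzene and 17.3 ± 4.63 CPM in Sham/Air (SD, n = 6 each), a log2 fold change of 0.36 that was 0.14 without the doubted pair. None of the 3 passed. In the unfolded protein response, Ern1, the IRE1 sensor, was -0.41 ± 0.12 and Manf, a secreted survival factor of the endoplasmic reticulum, was 0.30 ± 0.10. The list had 2 higher and 1 lower of 20. Atf3, a stress transcription factor, was the single member of 19 integrated stress response genes at an unadjusted p under 0.05, at 0.69 ± 0.19. It was 0.51 without Sham/Benzene replicate 4. Without the doubted pair that list had 1 higher and 3 lower.

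Immediate early genes, which are switched on within minutes of a stimulus, had 4 higher and 0 lower of 22 tested, and their median log2 fold change was 0.29. Without Sham/Benzene replicate 4 there were 2 higher, and without it and Sham/Air replicate 1 there were 1 higher and 1 lower, with a median of 0.02. Egr2 had 4.25 CPM in Sham/Benzene replicate 4 and 1.05 to 1.44 CPM in the other 5, against 0.551 to 1.21 CPM in Sham/Air. Its log2 fold change of 1.11 ± 0.34 was 0.53 without both libraries. Of 20 glucocorticoid-responsive genes, 5 were higher and 2 lower. Fkbp5, a co-chaperone that restrains the glucocorticoid receptor, was lower without overlap, with 22.6, 23.0 and 27.9 CPM as lowest, median and highest in Sham/Benzene and 28.7, 30.3 and 33.5 CPM in Sham/Air. The log2 fold change was -0.36 ± 0.09 (adjusted p = 0.21). Sgk1, a kinase induced by the same hormone, had the opposite sign at 0.42 ± 0.14, and 0.25 without Sham/Benzene replicate 1, where it stood at 191 CPM. Circadian genes had 3 higher of 20, and 1 without the doubted pair, led by Per2, a clock repressor, at 0.41 ± 0.11, and Ciart, another repressor, at 0.52 ± 0.21. Hypoxia genes had 1 higher and 1 lower of 20, Vegfa at 0.23 ± 0.09 and Epas1, which encodes HIF-2 alpha, at -0.20 ± 0.07.

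Cell cycle genes had 0 higher and 4 lower of 34 tested, with a median of -0.14 that was -0.06 without the doubted pair of libraries. There were 0 higher and 2 lower without Sham/Air replicate 1 and 2 higher and 1 lower without the pair. Mki67, a marker of dividing cells, ranged from 2.60 to 8.02 CPM around 4.52 in Sham/Benzene and from 5.80 to 20.2 CPM around 6.95 in Sham/Air, where replicate 1 held the highest value. Its log2 fold change of -0.72 ± 0.26 was -0.26 without the pair. Top2a, Kif11 and Mcm6, of chromosome handling, spindle and replication, were -0.65, -0.62 and -0.31.

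Interferon-stimulated genes had 4 higher and 0 lower of 33 tested, with a median of 0.10 with all libraries and 0.10 without the pair. There were 7 higher without Sham/Air replicate 1, with or without Sham/Benzene replicate 4. Stat2 and Irf9, which are parts of the complex that carries type I interferon signals to the nucleus, both stood without overlap. Stat2 had 23.7, 28.3 and 39.1 CPM as lowest, median and highest in Sham/Benzene, against 13.6, 20.3 and 23.1 CPM in Sham/Air, a log2 fold change of 0.54 ± 0.12 (adjusted p = 0.15). Irf9 had 24.5, 27.1 and 30.4 CPM in Sham/Benzene, against 17.3, 21.4 and 24.2 CPM in Sham/Air, a log2 fold change of 0.38 ± 0.09 (adjusted p = 0.16). Neither passed with edgeR and TMM scaling alone. With offsets for GC content and length Stat2 just passed, at 0.49 (adjusted p = 0.0495), and Irf9 did not (adjusted p = 0.060), and DESeq2 called both. Without the doubted pair they were 0.46 and 0.35. Oas2, an antiviral synthetase, and Igtp, an immunity GTPase, were the other 2, at 0.51 ± 0.20 and 0.29 ± 0.09.

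No gene of the immune cell lists passed with all libraries. Counts here are of genes at an unadjusted p under 0.05, against 3.09% higher and 2.64% lower over all genes. Macrophage and monocyte genes had 1 higher and 2 lower of 27, and the lower pair was Ccr2, the receptor of recruited monocytes, at -0.58 ± 0.21 and Mrc1, of resident macrophages, at -0.42 ± 0.18. Mrc1 was -0.05 without the doubted pair of libraries. MHC class II genes had none in either direction of 11. B-cell genes were low throughout. Ms4a1, which encodes CD20, ranged from 0.0951 to 0.633 CPM in Sham/Benzene and from 0.276 to 2.44 CPM in Sham/Air, with a log2 fold change of -1.68 ± 0.51 (adjusted p = 0.49), and Pax5, the B-lineage factor, was -1.14 ± 0.52. Only 7 of 30 listed lymphocyte genes and 11 of 24 neutrophil genes passed the filter on low counts. Of those neutrophil genes 2 were higher: Csf3r, the G-CSF receptor, at 0.47 ± 0.20, and 0.27 without Sham/Benzene replicate 4, and G0s2.

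G0s2, listed among neutrophil genes and known as an inhibitor of triglyceride lipase in fat and muscle, had 52.9, 60.7 and 92.0 CPM as lowest, median and highest in Sham/Benzene, against 12.8, 38.5 and 45.2 CPM in Sham/Air. The groups did not overlap, and the log2 fold change was 0.83 ± 0.18 (adjusted p = 0.15). It passed without Sham/Air replicate 1, at 0.67 (adjusted p = 0.026), and without both libraries, at 0.54 (adjusted p = 0.017).

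Chemokine genes had 1 higher and 3 lower of 23. Ccl7, a monocyte attractant, was 0.99 ± 0.25, and 0.68 without Sham/Benzene replicate 4. Cxcr4, the receptor that retains cells in their niche, was -0.59 ± 0.14 without overlap. Kit, the stem cell factor receptor of mast cells and progenitors, had 4.99 to 8.43 CPM in Sham/Benzene and 9.23 to 14.5 CPM in Sham/Air, with a log2 fold change of -0.63 ± 0.14 (adjusted p = 0.15). Endothelial genes had 1 higher and 2 lower of 20, and the lower pair was Vcam1, a leukocyte adhesion molecule, at -0.54 ± 0.15, and -0.32 without Sham/Air replicate 1, and Sele, E-selectin, at -0.37 ± 0.17. Complement genes had 1 higher of 19, Cfb, factor B of the alternative pathway, at 0.54 ± 0.23. Without the doubted pair Cfb was 0.28, and no complement gene was at an unadjusted p under 0.05. C4b, a classical pathway component, was 0.33 ± 0.18, and 0.15 without Sham/Air replicate 1.

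Matrix genes had 12 higher and 2 lower of 53 tested at an unadjusted p under 0.05, against 3.09% and 2.64% over all genes. None passed. The median was 0.09, and 0.06 without the doubted pair of libraries. There were 7 higher and 2 lower without Sham/Benzene replicate 4, and 6 higher and 3 lower without the pair. Mmp3, a matrix protease, had 9.51 to 18.4 CPM in Sham/Benzene and 5.68 to 11.2 CPM in Sham/Air, with a log2 fold change of 0.64 ± 0.15 (adjusted p = 0.20). Thbs1, thrombospondin 1, was higher without overlap at 0.59, with 57.1 CPM in Sham/Benzene replicate 4, and it was 0.35 without the pair. Fmod and Comp, matrix proteins of tendon and cartilage, were 0.81 and 0.71, and 0.43 and 0.37 without the pair. Ccn2, a matricellular growth factor modulator, was 0.29 ± 0.08. Spon1, a secreted matrix adhesion protein, was lower without overlap, with 34.2 to 44.9 CPM in Sham/Benzene and 45.5 to 52.0 CPM in Sham/Air, at -0.33 ± 0.07 (adjusted p = 0.15). Fibroblast markers had 1 higher of 17, Acta2, smooth muscle actin, at 0.19 ± 0.08. Smooth muscle and pericyte genes had 2 higher of 16, Acta2 and Tagln, another smooth muscle protein, at 0.25 ± 0.11. Vascular growth factor genes had 2 higher and 1 lower of 20, with Pgf, placental growth factor, at 0.46 ± 0.17.

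Sln and Myl7, 2 atrial markers, were highest in Sham/Benzene replicate 4. Sln, an inhibitor of the calcium pump that is abundant in atria, had 24.8 CPM in that replicate and 2.68 to 12.3 CPM in the other 5, against 2.84 to 7.98 CPM in Sham/Air. Myl7, the atrial regulatory light chain, had 83.5 CPM in replicate 4 and at most 42.3 CPM in the other 5. Of the 20 atrial, mesothelial and epicardial genes listed, 15 had a higher mean in Sham/Benzene, and their summed level was 399 to 833 CPM in Sham/Benzene and 510 to 546 CPM in Sham/Air. At an unadjusted p under 0.05, 5 of 10 tested were higher, against 3.09% over all genes. The median was 0.50, and 0.20 without the doubted pair. There were 3 higher without Sham/Air replicate 1, 2 without Sham/Benzene replicate 4 and 1 without the pair. Of the mesothelial markers, Msln and Upk1b were near 0 in both groups. Upk3b had 24 counts in Sham/Benzene and 6 in Sham/Air, with a highest value of 0.959 CPM and 0.276 CPM in that order. Replicate 4 also held the highest Hspa1a, Hspa1b, Dnajb1 and Egr2 values, and the part of atrial tissue in those values was not tested.

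No marker of cardiac load passed the test. Nppa, the atrial natriuretic peptide, had medians of 298 CPM in Sham/Benzene and 272 CPM in Sham/Air and a log2 fold change of 0.18 ± 0.15, and Nppb, the B-type peptide, had medians of 292 and 302 CPM in the same order and a log2 fold change of 0.04 ± 0.15. Both took a negative sign without the doubted pair of libraries, at -0.02 and -0.14. Myh7, the slow myosin of the fetal program, was 0.06 ± 0.11, Acta1, skeletal actin, was 0.06 ± 0.14, Myh6 was -0.22 ± 0.13 and Atp2a2, the calcium pump SERCA2, was -0.13 ± 0.08. Acta1 was -0.18 without the pair. Fetal and load-responsive genes had 3 higher and 2 lower of 19, and 1 and 2 without the pair, and adult contractile and calcium-handling genes had 1 higher, Sln, and 0 lower of 25. Ankrd1, a stretch-responsive protein of the sarcomere, was -0.43 ± 0.15, and -0.17 without the pair. Npr3, the natriuretic peptide clearance receptor, was lower without overlap, with 21.3 to 36.4 CPM in Sham/Benzene and 37.4 to 101 CPM in Sham/Air, at -0.81 ± 0.19 (adjusted p = 0.19). Its Sham/Air replicate 1 held 101 CPM, and without the pair its value was -0.44.

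Fuel-use genes had 3 higher of 34 on the fatty acid list, and 6 higher and 0 lower without the doubted pair. Ucp3, Angptl4 and Pdk4 are all genes that fasting raises in muscle, and whether feeding differed between the groups was not tested. Ucp3, a mitochondrial carrier, ranged from 20.6 to 60.7 CPM around 52.1 in Sham/Benzene and from 27.1 to 32.9 CPM around 30.8 in Sham/Air. Replicates 3 and 4 were the low Sham/Benzene libraries, and the other 4 lay above all of Sham/Air. With all libraries its log2 fold change was 0.58 ± 0.18 (adjusted p = 0.50), and without the doubted pair it was 0.73 and passed (adjusted p = 0.025). Pdk4, which blocks pyruvate entry to oxidation, had 188 to 445 CPM in Sham/Benzene and 204 to 407 CPM in Sham/Air, with Sham/Benzene replicate 4 and Sham/Air replicate 1 at the lowest and highest of these values within their groups. Its log2 fold change was 0.41 ± 0.16 with all libraries, and without the pair it was 0.70 and passed (adjusted p = 0.00011). Angptl4, an inhibitor of lipoprotein lipase, was 0.76 ± 0.26. Respiratory chain genes had 0 higher and 1 lower of 36, Ndufv2 of complex I at -0.35 ± 0.16, and glycolysis genes had none of 26. Ndufv2 was -0.06 without the pair.

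Among the remaining genes with the smallest p-values, Tnfrsf25, a death-domain receptor of T cells, was 1.29 ± 0.28, Khdc4, an RNA-binding splicing factor, was 0.38 ± 0.08 and Olfml2b, a secreted olfactomedin-domain protein, was 0.58 ± 0.13 (adjusted p = 0.15 for each). Tnfrsf25 was 0.90 without the doubted pair. On the lower side, Igfbp3, a carrier of insulin-like growth factors, was -0.42 ± 0.10 and Prdm1, the repressor Blimp-1, was -0.56 ± 0.14, both without overlap and with an adjusted p of 0.21. Ackr4, a chemokine scavenging receptor, was -0.47 ± 0.11, and D17H6S56E-5 was -0.68 ± 0.16. Other tissue lists had few members. Nerve genes had 1 higher of 11, S100b of glia at 0.59 ± 0.20. Erythroid genes had 1 lower of 8, Tfrc, the transferrin receptor, at -0.31 ± 0.12. The adipocyte list had Cyp2e1 alone higher of 12, and skeletal muscle genes had none of 9.

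**Figure D4:**
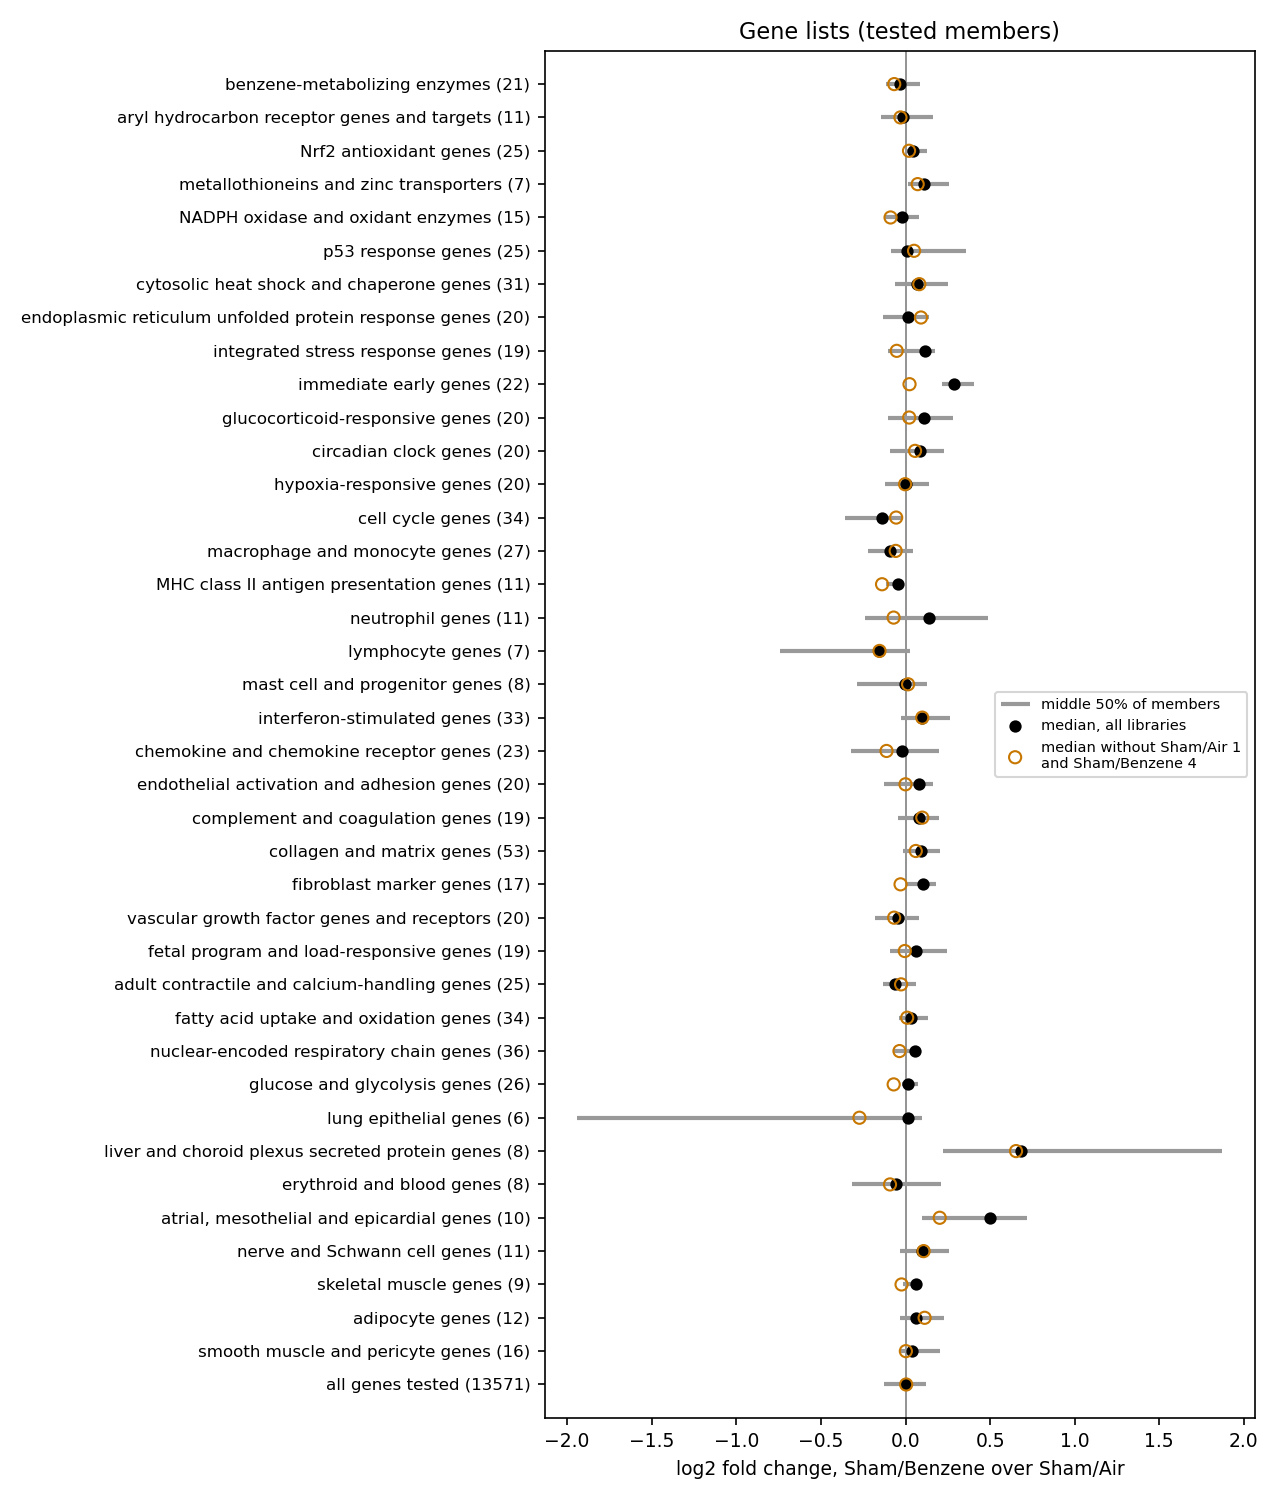
Median log2 fold change, Sham/Benzene over Sham/Air, of the tested members of each gene list (black), its value without Sham/Air replicate 1 and Sham/Benzene replicate 4 (open orange), and the middle 50% of members (grey). The number tested is in parentheses. Most medians lie near 0, and the median of the immediate early genes is 0.29 with all libraries and 0.02 without the pair.

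The benzene effect in sham hearts was set against that in TAC hearts by an interaction term. It differed in 23 of 13571 genes (0.169%) at an adjusted p under 0.05, and in TAC hearts alone 79 genes were called for benzene against air (0.582%). Cyp2e1 ranged from 0.508 to 1.48 CPM in TAC/Benzene and from 2.07 to 2.97 CPM in TAC/Air, a log2 fold change of -1.14 ± 0.22. The sham effect exceeded the TAC effect by 1.95 ± 0.30 on the log2 scale (adjusted p = 0.0017). Irf9 was -0.21 ± 0.08 in TAC hearts, a difference of 0.59 ± 0.12 (adjusted p = 0.032). Fkbp5 was 0.31 ± 0.09 in TAC hearts, a difference of -0.67 ± 0.12 (adjusted p = 0.014). Wif1, a secreted Wnt inhibitor, was 0.38 ± 0.19 in sham hearts and -0.92 ± 0.19 in TAC hearts, a difference of 1.30 ± 0.27 (adjusted p = 0.032). In these 4 genes the sham and TAC values had opposite signs. Hspa1b, at 3.45 in sham hearts and 0.53 in TAC hearts, did not pass this test (adjusted p = 0.27), and neither did Scgb1a1, which was -1.85 in TAC hearts with a 95% interval from -3.88 to 0.18. That value rests on levels near 0. Scgb1a1 averaged 0.0289 CPM in TAC/Benzene and 0.135 CPM in TAC/Air, against 0.732 CPM in Sham/Benzene and 6.32 CPM in Sham/Air. Sftpc averaged 0.0564 CPM in TAC/Benzene and 0.0563 CPM in TAC/Air, against 0.322 CPM in Sham/Benzene and 1.85 CPM in Sham/Air. Other genes that differed, named here after their values were seen, included the neutrophil genes S100a8 and S100a9 and the MHC class II genes H2-Aa and Cd74, all with sham values between -0.08 and 0.14.

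**Figure D5:**
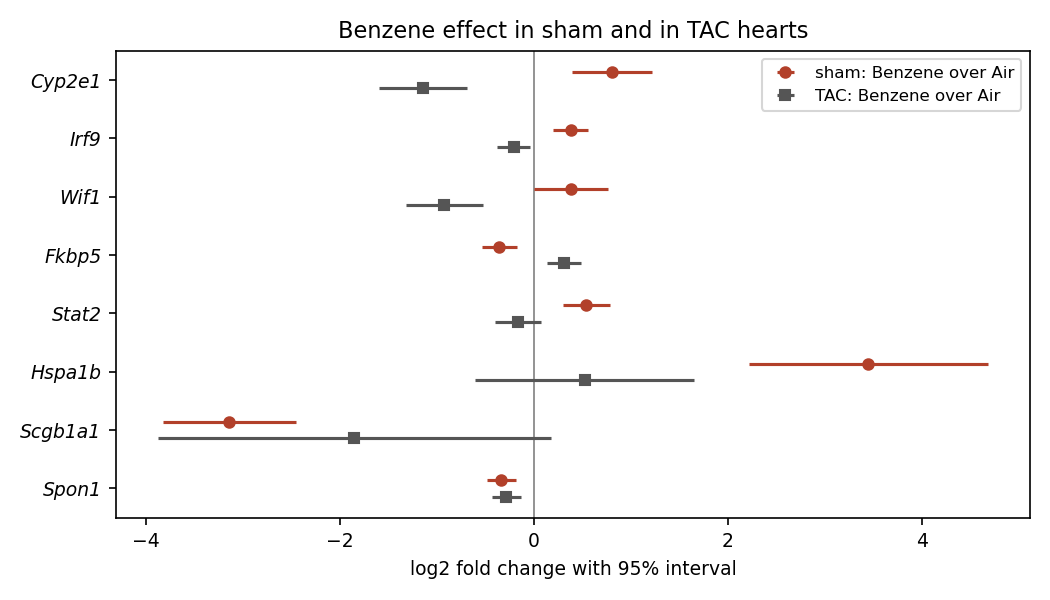
Log2 fold change of benzene over air with its 95% interval in sham hearts (circles) and TAC hearts (squares) for 8 named genes. Cyp2e1, Irf9, Wif1 and Fkbp5 passed the test of the difference between sham and TAC, and Stat2, Hspa1b, Scgb1a1 and Spon1 did not.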

How the data were processed

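The authors deposited raw read counts, whole numbers without scaling, for 25229 gene symbols and 24 libraries. Tools named in the submitters' processing notes are STAR, DESeq2 and FastQC 0.11.9, with mm9 as the genome build. How reads were counted, by which annotation and strand, is not given in the sources used here, so overlapping genes cannot be separated. Genes were filtered with edgeR 4.0.16 (R 4.3.3; minimum count 10, minimum total 15), which left 13571 and dropped 0.0747% of counts. TMM scaling and the robust quasi-likelihood test used all 24 libraries with 1 coefficient per group. Calls were made at a Benjamini-Hochberg adjusted p under 0.05. Each standard error (SE) is the size of the log2 fold change over the square root of F, and log2 CPM used a prior count of 2. The test was also run on simulated counts with planted changes. It called 44% of 1.5-fold changes and 92% of 2-fold changes, with 6 false calls over 13430 genes. The simulated counts held no outlying library and no GC trend, so these shares may not hold for the real libraries.

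The comparison, the 39 lists of genes and the naming rule were chosen with earlier results of these data known. The rule took all called genes, the 10 higher and 10 lower with the smallest p at a mean of at least 1 CPM, up to 2 members of each list, and 11 benzene, load and heat shock genes. Other genes in the text, such as Alb, Myl7, Pdk4 and Thbs1, were chosen after their values were seen. A gene that the rule names is not reported here. List members are counted over those that passed the filter, which a gene can pass through a single group. Alternatives were DESeq2 1.42.0, limma-voom 3.58.1 with sample weights, relative log expression factors, other filters, a fit of the 12 sham libraries, the replicate number as a block, each library left out, the doubted pair (Sham/Air replicate 1 and Sham/Benzene replicate 4) left out, and offsets for GC content and length. The sign of the GC trend as a covariate was chosen after seeing the data. GC content came from GENCODE vM21 and covered 98.5% of tested genes. Promoters came from RefSeq (GRCm38.p6), matched by symbol, and their coordinates are of that build and not of mm9.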

Additional observations from a re-analysis of the deposited data

Results flagged for a closer look

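Of 178 groups of 6 libraries examined over 89 named genes, 41 held a library far from the others, where chance alone would mark about 1 in 20. Of these, 36 were Sham/Air replicate 1, 3 were Sham/Benzene replicate 4 and 2 were Sham/Benzene replicate 3. In Sham/Benzene replicate 4, G0s2 was high at 92.0 CPM, Egr2 at 4.25 CPM and Fkbp5 at 27.9 CPM, and in Sham/Benzene replicate 3, Igfbp3 was low at 21.6 CPM and Wif1 at 4.07 CPM.

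Sham/Air replicate 1 was far below the rest of its group for Dnajb1 (6.25 CPM), Stat2 (13.6 CPM), G0s2 (12.8 CPM), Ephx1 (49.7 CPM), Mt2 (7.39 CPM), Sgk1 (69.6 CPM), Cfb (0.568 CPM), C4b (11.6 CPM), Sln (2.84 CPM), Sox10 (0 CPM), Plin4 (69.9 CPM), Nqo1 (50.6 CPM), Nppa (155 CPM), Nppb (123 CPM) and Acta1 (279 CPM). It was far above for Kit (14.5 CPM), Npr3 (101 CPM), Igfbp3 (54.0 CPM), Prdm1 (9.09 CPM), Gsta4 (161 CPM), Fth1 (4643 CPM), Cat (512 CPM), Cybb (36.9 CPM), Epas1 (648 CPM), Mki67 (20.2 CPM), Mrc1 (169.6 CPM), Clec9a (13.9 CPM), Vcam1 (93.5 CPM), Ankrd1 (4099 CPM), Casq2 (2344 CPM), Ndufv2 (1687 CPM), Atp5c1 (2277 CPM), Myl1 (92.9 CPM), Myh6 (42092 CPM), Myh7 (424 CPM) and Atp2a2 (23282 CPM). It was lower than the rest for several genes that were higher in Sham/Benzene, such as G0s2 and Ephx1, and higher for several that were lower there, such as Npr3 and Vcam1.

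The benzene effect in sham minus that in TAC, on the log2 scale and by the interaction term, was 1.95 for Cyp2e1, 0.59 for Irf9, 1.30 for Wif1 and -0.67 for Fkbp5.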

How the results depend on the processing

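Scgb1a1 kept its direction and its call under every alternative run. The 3 genes called with edgeR became 28 with DESeq2, 1 with no filter on low counts, 1 in the fit of the 12 sham libraries, 7 without both doubted libraries, 12 with GC and length offsets and 7 with the GC trend as a covariate. Leaving out 1 library at a time gave 1 to 5 calls. Genes at an unadjusted p under 0.05 numbered 301 in the 12-library fit, 1374 with the offsets and 1189 with the covariate, and 587 to 1181 with a library left out. The 23 interaction calls ran from 15 without Sham/Air replicate 4 to 49 without Sham/Air replicate 1. They were 57 with DESeq2, 91 with limma-voom, 69 without both doubted libraries and 61 with the offsets. The same-numbered replicates did not all deviate together (correlations from -0.03 to 0.47, and 2 of 6 correlated best with their own number), so the numbers were not taken to pair the samples. With the replicate number as a block, 2 genes were called in sham hearts and 14 by the interaction, and Hspa1b lost its call at 2.91. Hspa1b lost its call at 2.57 with limma-voom, 3.46 with no filter, 3.46 in the 12-library fit and 3.27 with the offsets, and with a library left out it ran from 2.13 to 3.71. Sftpc lost it at -2.61 with limma-voom, -2.54 with no filter, -2.56 in the 12-library fit and -2.32 without both doubted libraries, and with a library left out it ran from -2.84 to -2.32. The causes were not tested. Signs turned, for values that had not passed, in Fth1 (0.015) and Myl1 (0.091) with limma-voom, and in Nppb (-0.13) and Acta1 (-0.12) there. Without both doubted libraries they turned in Myl1 (0.070), Nqo1 (-0.030), Nppa (-0.022), Nppb (-0.14) and Acta1 (-0.18), and with the offsets in Nppa (-0.003), Myh7 (-0.24) and Acta1 (-0.16). With a library left out, Acta1 ran from -0.075 to 0.13, Myh7 from -0.031 to 0.14, Myl1 from -0.26 to 0.054, Nppb from -0.12 to 0.11 and Nqo1 from -0.040 to 0.080.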
